A study of Homo sapiens with 2 samples.

Results

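The 10 genes described here encode tubulins, and they were taken from the 57485 genes of the deposited RNA-seq tables by their gene symbols: the alpha tubulins TUBA1A, TUBA1B, TUBA1C and TUBA4A, the beta tubulins TUBB, TUBB2A, TUBB3, TUBB4B and TUBB6, and the gamma tubulin TUBG1. TUBG1 is neither an alpha nor a beta tubulin. It is left out of the alpha and beta sums but is counted among the 10 genes below. All 10 reached 1 FPKM (fragments per kilobase of transcript per 1000000 fragments) in at least 1 library, as did 14859 genes in all, which are called the tested genes. The RNA came from ARP1, an established multiple myeloma cell line, carrying a lentiviral short hairpin RNA against SRD5A1 (steroid 5α-reductase type I) that is switched on by doxycycline (Dox). One library was labelled untreated and 1 was labelled as treated with Dox, and poly(A) RNA was read in pairs of 150 bases. The genotype entry of the library with Dox names SRD5A2 where its title names SRD5A1, and the dose and time of Dox for this library were not given in the sources used here.

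Alpha and beta tubulin pair into dimers, and the dimers stack end to end into microtubules, the hollow filaments of the mitotic spindle and of intracellular transport. Gamma tubulin is not built into the filament wall but sits in a ring complex that starts new microtubules. Cells hold several alpha and beta isotypes from separate genes, and they adjust tubulin RNA to the supply of free dimers: when free dimers are plentiful, the protein TTC5 recognises the first residues of a tubulin leaving the ribosome and the RNA being translated is degraded.

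The libraries held 45918570 estimated counts without Dox and 48728927 with Dox, and 3 counts correspond to 0.0653 and 0.0616 of every 1000000 counts. Each condition had 1 library, so no difference below has a replicate check, and no p-value or SD is given. The intervals given are 95% and exact binomial by the Clopper-Pearson method, were computed from rounded counts and cover counting error only. By western blot, the study reports clearly lower SRD5A1 protein in ARP1 cells with the hairpin after Dox. In these libraries SRD5A1 RNA went against the label: its level was 13.04 FPKM (1375 counts) without Dox and 25.88 FPKM (3014 counts) in the library labelled with Dox. Every direction below is therefore that of the library labelled with Dox over the library labelled without it. No library with Dox and without the hairpin was analysed, so an effect of Dox and one of the hairpin cannot be told apart. The 9 plasma cell markers were present in both libraries, with a summed level of 2437 FPKM without and 2337 FPKM with Dox, although SLAMF7 and TNFRSF17 among them were higher with Dox, with log2 ratios of 1.40 and 1.06. The summed levels without and with Dox were 1.91 and 5.57 FPKM for 5 B cell markers, of which BCL6 was at 0.49 and 4.51 FPKM, 0.47 and 0.33 FPKM for 5 T cell markers and 0.52 and 1.01 FPKM for 5 myeloid markers. CD22, CD3D and CD3G were listed at 0 in both.

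The 30 bases that open each coding sequence are shown because, in alpha and beta tubulins, they encode the stretch read in tubulin autoregulation, with TUBG1 beside them for comparison. They come from the principal transcript of each gene in GENCODE release 29 (GRCh38), 5′ to 3′, with the first 12 bases in capitals.
TUBA1B: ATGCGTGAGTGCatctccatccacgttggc
TUBA4A: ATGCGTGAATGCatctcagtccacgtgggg
TUBB: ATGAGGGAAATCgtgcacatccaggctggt
TUBB4B: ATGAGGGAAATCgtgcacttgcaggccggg
TUBB6: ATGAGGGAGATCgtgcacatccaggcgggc
TUBB2A: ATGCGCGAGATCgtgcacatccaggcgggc
TUBB3: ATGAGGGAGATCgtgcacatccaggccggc
TUBG1: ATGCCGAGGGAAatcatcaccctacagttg
The coding sequences of TUBA1A and TUBA1C open with the same 30 bases as that of TUBA1B. Over the whole coding sequence, TUBA1B was 97.2% identical to TUBA1A, 97.3% to TUBA1C and 86.3% to TUBA4A, and TUBB was 84.9% identical to TUBB2A and 82.7% to TUBB3. The genes are scattered. TUBA1A (ENSG00000167552.13, chr12:49184796-49189324, reverse strand), TUBA1B (ENSG00000123416.15, chr12:49127782-49131397, reverse) and TUBA1C (ENSG00000167553.15, chr12:49188736-49274603, forward) lie close together. TUBA4A (ENSG00000127824.13) is at chr2:219249711-219278170 on the reverse strand. Of the beta genes, TUBB (ENSG00000196230.12, chr6:30720201-30725426, forward) and TUBB2A (ENSG00000137267.5, chr6:3153669-3157526, reverse) share a chromosome, whereas TUBB3 (ENSG00000258947.6) is at chr16:89921392-89938761, TUBB4B (ENSG00000188229.5) at chr9:137241213-137243707 and TUBB6 (ENSG00000176014.12) at chr18:12307669-12344320, all on the forward strand. TUBG1 (ENSG00000131462.7) is at chr17:42609676-42615234 on the forward strand.

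A few isotypes made up nearly all alpha and beta tubulin RNA, and in the library labelled with Dox these were lower by about 4 to 5-fold. TUBA1B, an alpha isotype found in most dividing cells, had the highest level of the 10 genes in both libraries, with 1337.31 FPKM without and 258.62 FPKM with Dox. TUBB, the beta isotype common to dividing cells, came second in both, at 821.57 and 165.19 FPKM. Among all genes, TUBA1B ranked 99 by FPKM without Dox and 357 with it, and TUBB moved from rank 146 to 589. The third by level without Dox was TUBA1C, another broadly expressed alpha isotype, at 568.96 FPKM, and its level with Dox was 107.56 FPKM, below the 118.27 FPKM of TUBG1. TUBB4B, a broadly expressed beta isotype that is also abundant in cilia, had 233.88 and 54.32 FPKM. TUBA4A, an alpha isotype known from platelets and muscle, had 130.43 and 26.41 FPKM.

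**Figure D1:**
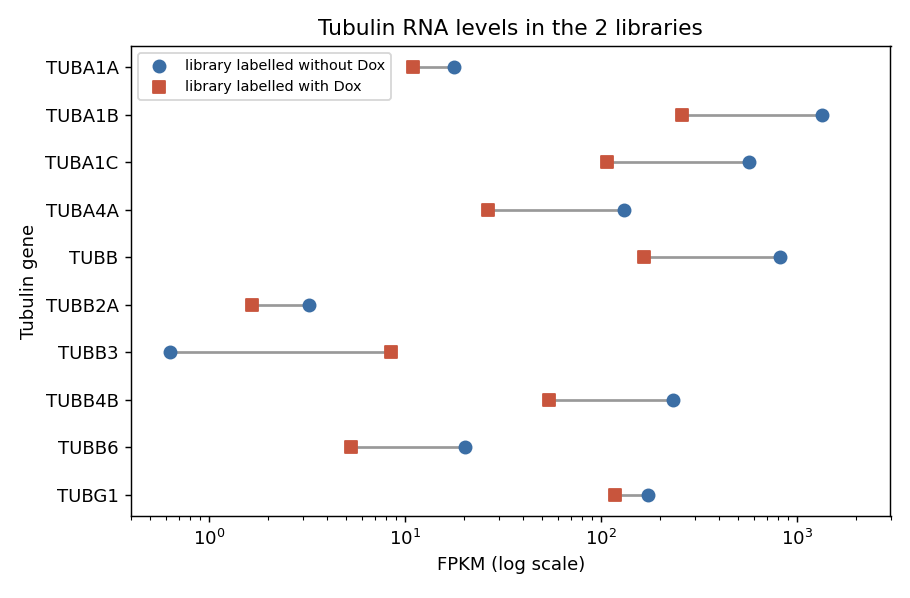
Level of each of the 10 tubulin genes in FPKM on a log axis, as a circle for the library labelled without Dox and a square for the library labelled with Dox, 1 library each. For 9 genes the square lies to the left of the circle, and for TUBB3 it lies to the right (0.63 against 8.48 FPKM).

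Ratios were taken as log2 of (FPKM + 0.1) with Dox over that without Dox, which understates the change of genes at low levels. Of the 10 genes, 6 were lower with Dox by more than 2-fold, 1 was higher by more than 2-fold and 3 lay within 2-fold. Among all tested genes, 6.41% were lower and 17% higher by that margin. The median log2 ratio was -2.004 over the 10 genes, -2.10 over the 9 alpha and beta genes and 0.15 over all tested genes. More than 4-fold lower were 5 of the 10 genes, TUBA1B, TUBA1C, TUBA4A, TUBB and TUBB4B, against 1.13% of the tested genes. All 5 had at least 100 FPKM in 1 library, and among the 1306 genes at that level 8.88% were more than 2-fold lower and 1.15%, or 15 genes, more than 4-fold lower.

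TUBA1C had a log2 ratio of -2.40 (interval -2.45 to -2.35), from 20108 and 3956 counts, the lowest of the 10. TUBA1B was at -2.37 (interval -2.40 to -2.35), from 76798 and 16109 counts. TUBB was at -2.31 (interval -2.34 to -2.29), from 91575 and 19517 counts. These 3 genes thus carried fold differences of 5.29, 5.17 and 4.97. TUBA4A was at -2.30 (interval -2.39 to -2.21), from 5356 and 1239 counts. TUBB4B was at -2.10 (interval -2.16 to -2.05), from 15031 and 3724 counts. The sixth gene more than 2-fold lower was TUBB6, a beta isotype known to destabilise microtubules when it is overproduced. Its level was 20.14 FPKM (1020 counts) without and 5.31 FPKM (350 counts) with Dox, and its log2 ratio was -1.90 (interval -2.10 to -1.75). The ratios of all 9 alpha and beta genes spanned 5.96 on the log2 scale, from -2.40 to 3.56. The 6 genes more than 2-fold lower spanned 0.50, from -2.40 to -1.90, a span that follows in part from choosing them by their ratio. Of the 14859 tested genes, 199 (1.34%) had a ratio at or below that of TUBB6. In FPKM, the counting intervals of TUBB4B and TUBB6 overlapped each other and lay above those of TUBA1C, TUBA1B, TUBB and TUBA4A. With counts scaled to the library total but not divided by length, TUBA4A was at -2.19, TUBB4B at -2.10 and TUBB6 at -1.61. On that scale TUBA1C, TUBA1B and TUBB were at -2.43, -2.34 and -2.32. Intervals were not computed for that scale, so the order of the intervals is given for FPKM only.

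**Figure D2:**
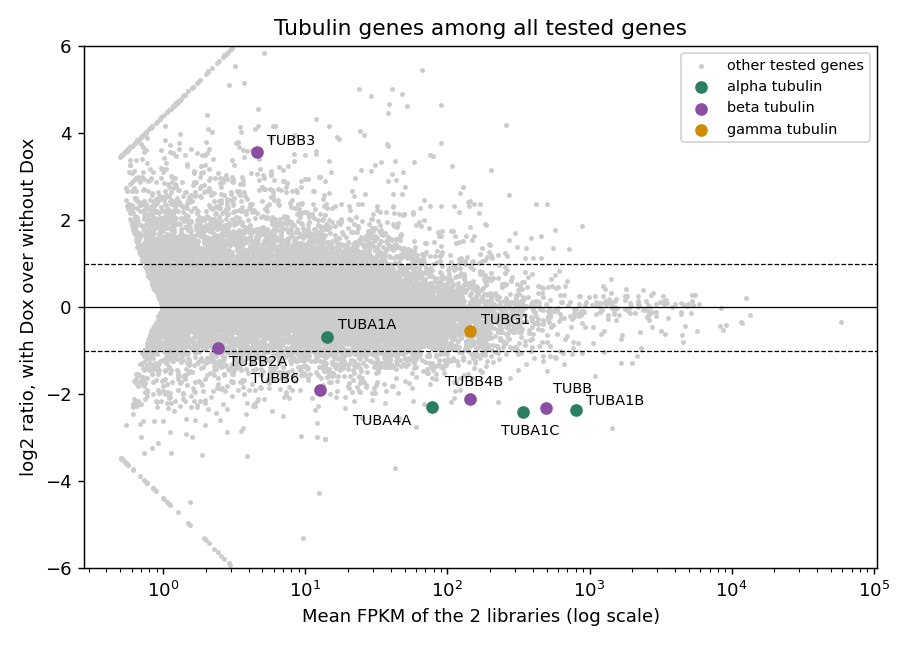
log2 ratio of FPKM, with Dox over without Dox, against the mean FPKM of the 2 libraries on a log axis, with the tested genes as grey dots and the 10 tubulin genes in colour by family. The dashed lines mark 2-fold, and 20 genes past 6 on either side of 0 are not drawn. TUBA1B, TUBA1C, TUBA4A, TUBB and TUBB4B lie together between -2.40 and -2.10, TUBA1A, TUBB2A and TUBG1 lie between the lines, and TUBB3 lies at 3.56.

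TUBA1A, TUBB2A and TUBG1 were lower with Dox but stayed within 2-fold. TUBA1A, the main alpha isotype of the developing brain, had 17.68 FPKM (1181 counts) without and 11.01 FPKM (760 counts) with Dox, a log2 ratio of -0.68 (interval -0.82 to -0.55). It overlaps TUBA1C on the opposite strand and has nearly the same coding sequence as TUBA1B, yet its ratio was far from those of both. Both are far more abundant, so the ratio of TUBA1A depends in part on how shared reads were apportioned. TUBB2A, a beta isotype rich in brain, was at 3.24 FPKM (201 counts) and 1.65 FPKM (108 counts), with a log2 ratio of -0.93. The counting interval of TUBB2A, -1.32 to -0.63, included a 2-fold difference. TUBG1 had 172.69 FPKM (8796 counts) and 118.27 FPKM (6258 counts), a log2 ratio of -0.55 (interval -0.59 to -0.50).

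TUBB3 was the exception in direction. This beta isotype is typical of neurons and is the least abundant of the 10 genes in the library without Dox, where it had 0.63 FPKM from 33 counts. In the library labelled with Dox it had 8.48 FPKM from 397 counts, a 13.5-fold difference. Its log2 ratio was 3.56 with the pseudocount of 0.1, 2.54 with a pseudocount of 1 FPKM and 3.75 (interval 3.24 to 4.31) with none, and 174 tested genes had a ratio above 3.56. Even so, its level with Dox remained below those of TUBA1A and of the 5 alpha and beta isotypes that were more than 4-fold lower. Of 8 neuron markers, NEFM, a neurofilament subunit, was at 0.59 and 2.58 FPKM without and with Dox and SYP, a synaptic vesicle protein, at 2.71 and 7.83 FPKM, and these 2 made up most of the summed level of the 8, 4.01 and 10.9 FPKM. The other markers did not follow them: DCX was at 0.17 and 0.01 FPKM (55 and 4 counts), SNAP25 at 0.42 and 0.36 FPKM and MAP2 at 0.03 and 0.01 FPKM, RBFOX3 and GAP43 stayed below 0.1 FPKM, and NEFL was listed at 0 in both libraries. The part of these genes in the TUBB3 result was not tested.

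Summed over isotypes, alpha tubulin RNA went from 2054.38 to 403.6 FPKM and beta tubulin RNA from 1079.46 to 234.95 FPKM. The log2 ratio of the sum was -2.35 (interval -2.37 to -2.33) for alpha and -2.20 (interval -2.22 to -2.18) for beta, or 5.09-fold and 4.59-fold lower with Dox. Without TUBB3 the beta ratio was -2.25, and over all 11 alpha and all 23 beta rows of the tables, pseudogenes included, the ratios were -2.34 and -2.19. Relative to the median of all tested genes the sums differed by -2.50 and -2.35 on the log2 scale, and TUBA1A, TUBB2A, TUBG1 and TUBB3 by -0.83, -1.09, -0.70 and 3.40. The 10 genes held 0.479% of all counts (interval 0.477 to 0.481) without and 0.108% (interval 0.107 to 0.108) with Dox. As FPKM is relative to all other RNA in a library, and the samples are bulk, fewer cells of a type and less RNA per cell cannot be told apart. The alpha to beta ratio of summed FPKM was 1.90 without and 1.72 with Dox.

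TUBA1B, TUBA1C and TUBA4A kept similar shares of the alpha sum, while the share of TUBB in the beta sum was lower with Dox. The shares of the minor isotypes TUBA1A, TUBB2A, TUBB3 and TUBB6 were higher with Dox. TUBA1B held 65.1% of summed alpha FPKM without and 64.1% with Dox, TUBA1C held 27.7% and 26.7%, and TUBA4A held 6.35% and 6.54%. TUBA1A, which fell less in level, had a share of 0.861% and then 2.73%. On the beta side TUBB held 76.1% and 70.3%, and TUBB4B held 21.7% and 23.1%. TUBB6 accounted for 1.87% and 2.26%, and TUBB2A for 0.300% and 0.702%. The share of TUBB3 went from 0.0584% to 3.61%, so that it passed TUBB6 and became the third beta isotype by level with Dox.

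**Figure D3:**
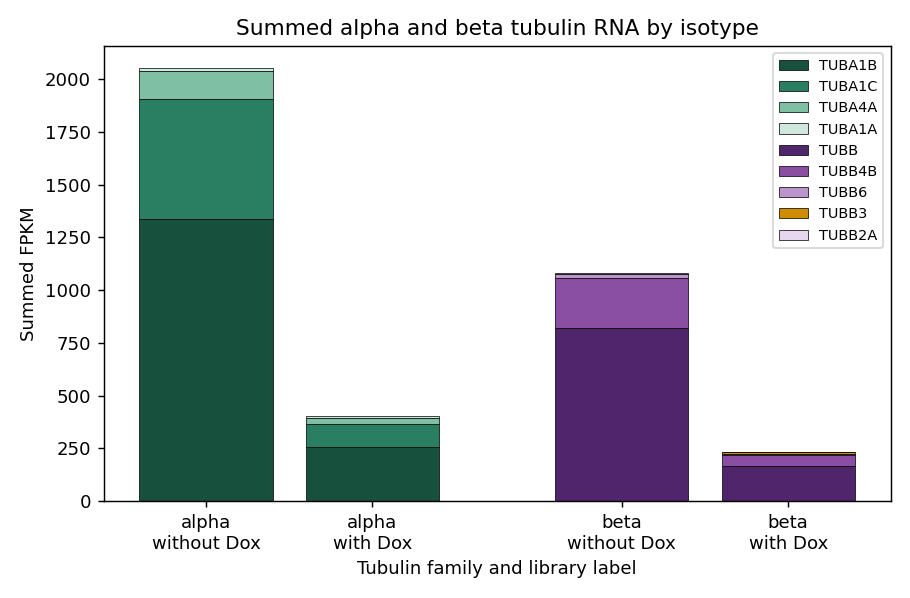
Summed FPKM of the 4 alpha and the 5 beta tubulin genes in the libraries labelled without and with Dox, stacked by isotype from an axis that starts at 0. The alpha bar goes from 2054.38 to 403.6 FPKM and the beta bar from 1079.46 to 234.95 FPKM, with TUBA1B and TUBB the largest blocks in each.

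Near-identical and overlapping genes limit how reads were assigned to single isotypes. For each gene, the share of 150-base windows of its principal transcript that also occur, on either strand, in a transcript of another gene was counted. TUBB4B and TUBB6 shared none, TUBG1 shared 6.22%, TUBA1A 12.6%, TUBB 17.97%, TUBA4A 23.7% and TUBA1C 23.9%. TUBA1B shared 64.2%, all of which also occur in an antisense row of 13 counts without and 1 count with Dox. Whether strand was used in the counting was not given in the sources used here, so reads of a gene and of its antisense partner cannot be told apart.

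For TUBB3, TUBA4A, TUBB2A and TUBA1A the ratio was also computed for the sum with such a partner. TUBB3 shared 88.7% of its windows with a protein-coding gene that overlaps it on the same strand (RP11-566K11.2 in the tables, 0 and 84 counts). Summed with that row, TUBB3 had a log2 ratio of 3.67 (interval 3.35 to 4.42). TUBA4A overlaps the kinase gene STK16 on the other strand, whose level was 12.39 and 18.51 FPKM. The sum of TUBA4A and STK16 had a log2 ratio of -1.67 (interval -1.73 to -1.60). STK16 itself had a log2 ratio of 0.58, and with Dox it had 1479 counts against 1239 for TUBA4A. That sum is thus not a ratio of TUBA4A alone. TUBB2A shared 49.4% of its windows with TUBB2B, which had 12 and 40 counts, and their sum had a log2 ratio of -0.66 (interval -0.99 to -0.37). Summed with TUBA1C, TUBA1A had a log2 ratio of -2.31 (interval -2.35 to -2.26), and summed with TUBA1B -2.33 (interval -2.35 to -2.31). The partner makes up most of each of these sums, so they say little about TUBA1A alone. These partners were chosen after the values had been seen.

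Another property of the deposited values is the length they are divided by. The mean transcript length assigned to TUBB was 2670.4 bases without and 2670.26 bases with Dox. For TUBB6 it was 1346.18 and 1599.43 bases and for TUBB3 1382.28 and 1206.09 bases, so the ratios of these genes include a change in the assigned isoforms.

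Promoter sequence is shown for TUBA1B, TUBB and TUBB4B, since these genes were lower together and since at least 99 bases of their windows lie outside the annotated gene. The windows are the 250 bases before the RefSeq start site (GRCh38.p14), cut to the part outside the gene and printed 5′ to 3′ on the strand of the gene, with matches to the searched motifs in capitals, on either strand. The capitals that end the TUBA1B sequence are a match that runs past the edge of the gene and is cut there. TUBA1B lies at chr12:49131398-49131645, TUBB at chr6:30720102-30720200 and TUBB4B at chr9:137241037-137241212.
TUBA1B: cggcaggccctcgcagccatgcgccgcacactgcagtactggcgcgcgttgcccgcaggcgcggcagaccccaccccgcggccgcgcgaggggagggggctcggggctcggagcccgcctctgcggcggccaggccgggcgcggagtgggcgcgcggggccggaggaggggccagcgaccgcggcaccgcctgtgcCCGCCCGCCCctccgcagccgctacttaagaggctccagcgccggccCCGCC
TUBB: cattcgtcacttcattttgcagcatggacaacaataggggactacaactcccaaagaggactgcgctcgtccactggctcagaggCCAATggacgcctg
TUBB4B: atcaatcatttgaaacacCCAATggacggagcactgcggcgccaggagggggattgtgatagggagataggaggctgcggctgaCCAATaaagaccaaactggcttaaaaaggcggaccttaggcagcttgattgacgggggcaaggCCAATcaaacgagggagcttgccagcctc
Searched on both strands of the full windows, CCAAT was found in 7 of the 10 genes against 32.02% of 34788 RefSeq promoters, and GGGCGG in 8 of 10 against 42.6%. The RefSeq promoters were not limited to the tested genes. CCAAT was absent from TUBA1B, TUBA4A and TUBB2A and present in TUBB3, the gene that was higher with Dox. GGGCGG was absent from TUBA1A and TUBB4B and also present in TUBB3. A link between the motifs and the ratios was not tested. The full windows of TUBA1C, TUBA4A, TUBB3 and TUBB6 lie wholly within the annotated gene, and that of TUBA1A has 6 bases outside it. TATAAA was found in 1 of the 10, TUBB2A, against 10.8% of promoters. GAANNTTC and TGATGNAA were found in none of the 10 windows, against 5.80% and 3.16% of promoters. No motif was shared by all 10, and TUBA1B held GGGCGG without CCAAT where TUBB4B held CCAAT without GGGCGG.

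The tables held 29 further tubulin rows, 16 of them pseudogenes, of which 12 were listed at 0 in both libraries. The pseudogene with the highest level, TUBBP1, was at 6.48 and 1.33 FPKM with a log2 ratio of -2.20, and it shared windows with TUBB. Of 12 other tubulin genes, 5 were tested. TUBE1, the epsilon tubulin of centrioles, was at 11.62 FPKM (667 counts) without and 70.99 FPKM (4469 counts) with Dox, a log2 ratio of 2.60 (interval 2.49 to 2.73). The brain beta isotype TUBB4A was at 11.85 and 2.84 FPKM, a log2 ratio of -2.02 (interval -2.25 to -1.88). TUBD1, the delta tubulin of centrioles, had a log2 ratio of -0.25 and TUBG2, the second gamma tubulin, of 0.18.

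Among genes that fold, nucleate, modify and bind tubulin, no list had a median log2 ratio below -0.73. Over 9 companion lists, which include the other tubulins, 81 of 106 genes were tested. By more than 2-fold, 9 of them were higher and 4 lower with Dox, beside 17% and 6.41% of all tested genes. The same shares apply to the counts of single lists below. Rescaled by TMM factors, the split of the 81 genes was 6 higher and 10 lower, and by DESeq2 size factors 6 and 11. TBCEL, TTLL3 and KIF2A came within 2-fold under both, and the genes that became lower by more than 2-fold included PFDN2, PFDN6, CCT7, MAPRE2 and KATNAL1 under both and CCT3 under DESeq2. Over all tested genes the split went likewise from 2521 higher and 953 lower to 1946 and 1527 by TMM and 1922 and 1562 by DESeq2, and the median of all tested genes from 0.15 to -0.05 and -0.06. The 10 tubulin genes kept 9 ratios below 0 and 1 above under each of these scalings, and TUBB2A passed 2-fold under both, at -1.13 and -1.14.

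All 8 subunits of CCT, the ring chaperonin that folds new alpha and beta tubulin, were lower with Dox, with log2 ratios from -1.04 to -0.37 and a median of -0.73. All 8 had at least 100 FPKM in 1 library, and of the 1306 genes at that level 820 had a ratio below 0, with a median of -0.17. CCT5 went from 442.83 to 214.61 FPKM, a log2 ratio of -1.04, and was the subunit past 2-fold. The other subunits were TCP1, CCT2, CCT3, CCT4, CCT6A, CCT7 and CCT8, and each lay within 2-fold. Prefoldin hands unfolded tubulin to CCT, and its 6 subunits lay within 2-fold with a median of -0.16. PFDN2 was at -0.92 and PFDN6 at -0.93, whereas PFDN1, VBP1, PFDN4 and PFDN5 lay between -0.19 and 0.04. The tubulin cofactors assemble folded alpha and beta tubulin into a dimer, and TBCA, TBCB, TBCC, TBCD, TBCE and the GTPase ARL2 were all within 2-fold. TBCEL, a cofactor relative that takes dimers apart, was at 8.6 and 17.81 FPKM, a log2 ratio of 1.04, and the median of the 7 genes was -0.22.

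For tubulin autoregulation, TTC5 was at 13.05 FPKM without and 8.33 FPKM with Dox, a log2 ratio of -0.64. SCAPER, which links TTC5 to the RNA-degrading CCR4-NOT complex, had a log2 ratio of 0.48, and the complex subunit CNOT11 had -0.19. None of these 3 passed 2-fold. In the gamma-tubulin ring complex list, the median was -0.11. None of its 11 genes passed 2-fold, beside 17% higher and 6.41% lower among all tested genes. NEDD1, which recruits the complex to the spindle, had a log2 ratio of 0.92 and TUBGCP4, a subunit of the ring, -0.76, with TUBG1 at -0.55 beside them.

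Of 26 enzymes that modify tubulin, 17 were tested, and past 2-fold 4 were higher (TTLL1, TTLL7, HDAC6 and TTLL3) and 2 lower (ATAT1 and TTLL12), beside 17% and 6.41% of all tested genes. TTLL3 was within 2-fold under TMM and DESeq2 scaling. TTLL1, a glutamylase, was at 1.62 and 12.61 FPKM with a log2 ratio of 2.89, and TTLL7, another glutamylase, had 1.55. HDAC6, which removes the acetyl group from alpha tubulin, was at 14.19 and 38.48 FPKM with a log2 ratio of 1.43. ATAT1, which adds that group, was at 11.07 and 4.97 FPKM with a log2 ratio of -1.14. Of 14 tested microtubule-binding proteins 1 was past 2-fold, the plus-end protein CLIP1 with a log2 ratio of 1.27. MAPRE2, MAP4 and MAPRE1 lay at -0.89, 0.77 and -0.71. Among 10 tested microtubule destabilisers 2 were past 2-fold, the severing protein relative FIGNL1 at 1.64 and the depolymerising kinesin KIF2A at 1.11. The katanin subunit KATNA1 lay at 0.69.

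**Figure D4:**
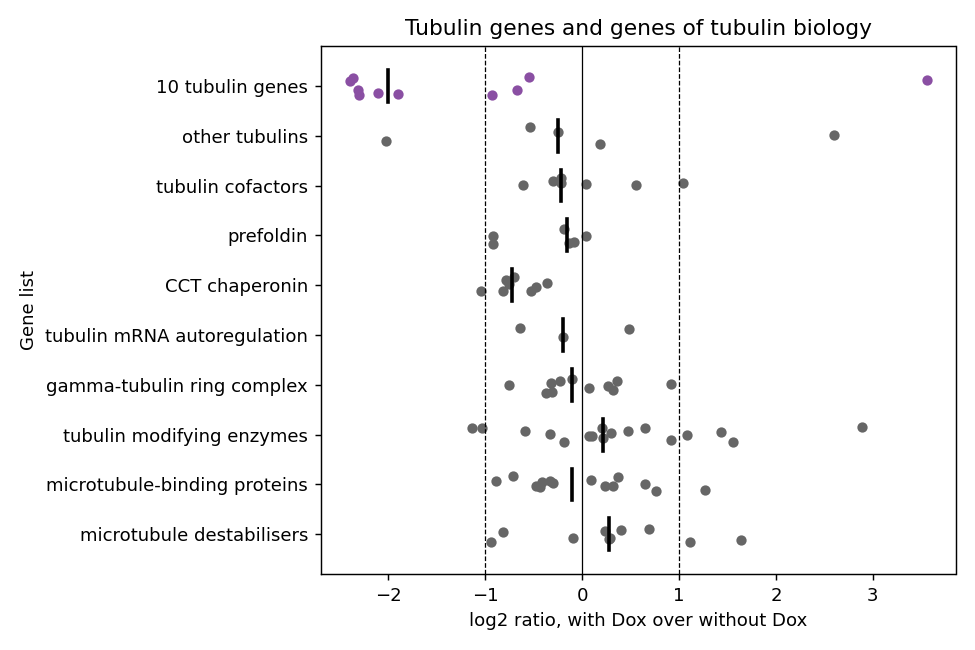
log2 ratio of FPKM, with Dox over without Dox, of the 10 tubulin genes and of the tested genes of 9 companion lists, 1 point per gene, with small vertical offsets for legibility. The black bars are medians and the dashed lines mark 2-fold. The median of the 10 tubulin genes is -2.004, and the companion medians lie between -0.73 (CCT chaperonin) and 0.28 (microtubule destabilisers).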

How the data were processed

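RNA of ARP1-SRD5A1-KD cells labelled without and with Dox was sequenced as 1 library each on an Illumina NovaSeq. The authors deposited expected counts per gene, made by apportioning reads that match several transcripts, and 14.5% and 15.4% of these were not whole. The authors deposited TPM values, scaled by length and to a sum of 1000000, and FPKM values, divided by length and library total, beside gene lengths in bases. The submitters' processing notes name Bowtie 0.12.2, HISAT2 2.1.0, StringTie 1.3.4d and hg19, without roles. All 79 listed transcripts of the 10 genes are in GENCODE release 29, so coordinates were taken from it in GRCh38, although hg19 is named, and the deposited tables hold no coordinates. Promoters were from RefSeq, and all 10 genes matched.

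Ratios used log2(FPKM + 0.1) over the genes that reached 1 FPKM in either library, and intervals used rounded counts and the ratio without pseudocount. The study called differential expression with edgeR, which cannot estimate a dispersion from 1 library per condition. edgeR 4.0.16 (TMM) and DESeq2 1.42.0 therefore gave scaling factors only, from genes with at least 10 counts. Python 3.11.15 with pandas 2.3.3, numpy 2.4.6, scipy 1.17.1, Biopython 1.88 and matplotlib 3.10.9 was used for the rest. Coding sequences were aligned globally. The fold step was tested on simulated data. Alternatives covered the pseudocount, the filter, TPM, both scalings, counts per 1000000, and sums over all alpha or beta rows.

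Named were the 10 genes, SRD5A1, every gene of companion lists of up to 8, the 4 largest ratios among genes with at least 5 FPKM in longer lists, and the highest pseudogene. Of the short marker lists, only some genes are named and the rest are given by their sum. Some genes that this rule would name are not reported here. The 10 genes and the lists were chosen with earlier results of these data known.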

Additional observations from a re-analysis of the deposited data

How the results depend on the processing

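The directions of the 10 tubulin genes, of both sums and of the median held under every scaling and pseudocount tried, but sizes depended on scaling. The summed alpha ratio of -2.35 became -2.25 with TPM, -2.56 with TMM factors, -2.57 with DESeq2 size factors and -2.31 with counts per 1000000. The summed beta ratio of -2.20 became -2.10, -2.41, -2.42 and -2.25 in the same order. The median of the 10 genes, -2.004, became -2.21 with TMM, -2.22 with DESeq2 and -1.86 with counts per 1000000. TMM and DESeq2 shift every gene alike by construction. The sums of TUBA4A with STK16 and of TUBB with its antisense row, tried after the data were seen, gave -1.67 and -2.29. The sum with STK16 includes the RNA of that other gene. A pseudocount of 1 FPKM put TUBB3 at 2.54. No paired analysis was possible because each condition has 1 library. The depth limits TUBB3 and TUBB2A most, with 33 counts in the lower library of TUBB3 and 108 in that of TUBB2A.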
